A study of Mus musculus with 24 samples.

Results

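The choroid plexus epithelium is the sheet of cells that lines the brain ventricles at the choroid plexus and secretes cerebrospinal fluid. It was followed here through 10 genes, Ttr, Sostdc1, Enpp2, Car12, Folr1, Clic6, Kl, Otx2, Aqp1 and Slc4a5. They were taken as a list of symbols from the 50686 genes in the count tables, chosen with earlier results of these data known. All 10 were found, and all 10 passed the filter on low counts. The RNA came from tissue labelled as back left brain of C57BL/6 mice, flash frozen and sequenced with a stranded mRNA kit. The knockout mice were Pank1-/-Syn-Pank2-/- double knockouts (dKO), and wild type mice (WT) served as controls. Pank1 and Pank2 encode pantothenate kinases, the enzymes that open coenzyme A synthesis. The labels do not spell out Syn, and neither the promoter or cell type that may limit the loss nor the deleted exons are given in the sources used. Females and males were sampled at day 10 and day 20, with 3 libraries in each of the 8 groups, and the question was how knockout and control differ at each day.

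In background terms, the epithelium moves salt, bicarbonate and water from blood to ventricle through transporters and channels, carries folate and thyroid hormone into the fluid, and releases signalling proteins into it. Transthyretin, the product of Ttr, is the protein it is best known for. Several of the listed genes are also active outside this epithelium: Enpp2 in oligodendrocytes, Kl in neurons and Otx2 in other midbrain and hindbrain cells. A level in bulk tissue therefore adds up all of its sources, and fewer cells of a type cannot be told apart from less RNA per cell.

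Gene counts were 9.19 to 44.7 M per library (M, mega) in 23 libraries, of which 1 count stood for 0.0224 to 0.109 counts per M (CPM). The remaining one (dKO male day 10 replicate 3) had a total of 45964 and was left out, so dKO at day 10 has 5 libraries. Replicate numbers only name libraries here. Whether each library is 1 animal is not stated, so the p-values speak only of spread between libraries, which may be technical. Pank1 was lower in dKO (7.49 ± 0.46 against 22.7 ± 2.34 CPM at day 20, SD, n = 6 each), and Pank2 was at 42.0 ± 3.16 against 56.5 ± 3.32 CPM; whole-gene counts do not test the deleted part. Xist and 4 Y-linked genes (Kdm5d, Eif2s3y, Uty and Ddx3y) matched the labelled sex in all 23. Cerebellar granule and Purkinje neuron markers were present in all 23 libraries, with summed levels of 351 to 2401 and 880 to 4315 CPM.

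One library stands apart for the genes described here. In the library labelled dKO male day 10 replicate 2, Ttr was at 1.90 CPM (34 counts), against 232 to 579 CPM in the 10 other day 10 libraries. It was also the lowest of the 11 in granule markers (351 against 1063 to 2401 CPM), Purkinje markers (880 against 1125 to 3893 CPM) and 12 Hox genes of the hindbrain (0.112 against 2.25 to 111 CPM). It was the highest of the 11 in ependymal and cilia markers (58.3 against 24.3 to 35.8 CPM), in microglial markers (197 against 138 to 174 CPM) and also in the sum of 28 other choroid plexus genes (462 against 352 to 448 CPM). That sum mixes genes of unlike level, and Cldn2, Mfrp and Kcne2 in it averaged only 2.72, 2.67 and 2.44 CPM over the 23 libraries. The sum says little of such low genes. With group means removed, 12 of 25 genes of that list had Pearson's r over 0.5 with the mean of the 10. The lowest r was -0.43. Values at day 10 include this library, and those the results turn on are given again without it.

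RefSeq promoter windows (GRCm38.p6, 250 bases before to 50 after a start) of Car12, Kl, Otx2, Aqp1 and Slc4a5 were searched for TAATCC on both strands (GGATTA on the reverse). This is the core motif of OTX and other bicoid-class homeodomain proteins, and Otx2 is the member that encodes such a factor. It was present in 1 of the 8 windows of these 5 genes, against 7.06% of 32851 windows in the whole table. Windows on the chromosome of Ttr were passed over for the members but kept in the share of the whole table. Printed here are the Otx2 window that holds the motif and those of Aqp1 and Slc4a5, 2 genes that moved together between libraries while Otx2 did not. Capitals mark the motif, which starts at position -211 from the start in the Otx2 window. These are Otx2 at chr14:48665060-48665359 on the minus strand, Aqp1 at chr6:55336049-55336348 on the plus strand and Slc4a5 at chr6:83237125-83237424 on the plus strand.
Otx2: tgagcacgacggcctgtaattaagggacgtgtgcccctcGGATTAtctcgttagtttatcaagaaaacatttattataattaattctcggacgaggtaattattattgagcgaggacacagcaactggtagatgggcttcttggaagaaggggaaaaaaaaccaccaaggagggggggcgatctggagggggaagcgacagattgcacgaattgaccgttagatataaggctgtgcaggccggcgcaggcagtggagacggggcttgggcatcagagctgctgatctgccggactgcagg
Aqp1: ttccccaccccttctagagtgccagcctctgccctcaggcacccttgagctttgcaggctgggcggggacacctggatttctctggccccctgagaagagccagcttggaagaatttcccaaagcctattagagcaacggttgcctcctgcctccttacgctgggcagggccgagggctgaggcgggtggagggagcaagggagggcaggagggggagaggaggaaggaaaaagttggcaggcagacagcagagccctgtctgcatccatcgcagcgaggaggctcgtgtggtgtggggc
Slc4a5: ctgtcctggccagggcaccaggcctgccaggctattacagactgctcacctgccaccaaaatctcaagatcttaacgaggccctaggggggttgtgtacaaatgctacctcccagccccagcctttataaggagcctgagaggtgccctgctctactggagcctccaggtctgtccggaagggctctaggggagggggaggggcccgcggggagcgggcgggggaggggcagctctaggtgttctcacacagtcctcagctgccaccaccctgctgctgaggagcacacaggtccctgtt
The Aqp1 and Slc4a5 windows hold no copy of these letters, which says nothing about binding elsewhere.

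The levels of the 10 genes differed widely. Per kilobase of exon and averaged over the 23 libraries, Ttr was highest at 353 CPM per kb, followed by Enpp2 at 74.5. Otx2 (3.56) and Clic6 (2.89) came next, then Sostdc1 (1.65), Aqp1 (1.62), Folr1 (1.5), Kl (1.36), Slc4a5 (1.21) and Car12 (0.699). Neighbours from Sostdc1 to Slc4a5 lie close together, and their order changes between groups. In single libraries the lowest count of any member was 8, for Aqp1 in the library that stands apart.

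**Figure D1:**
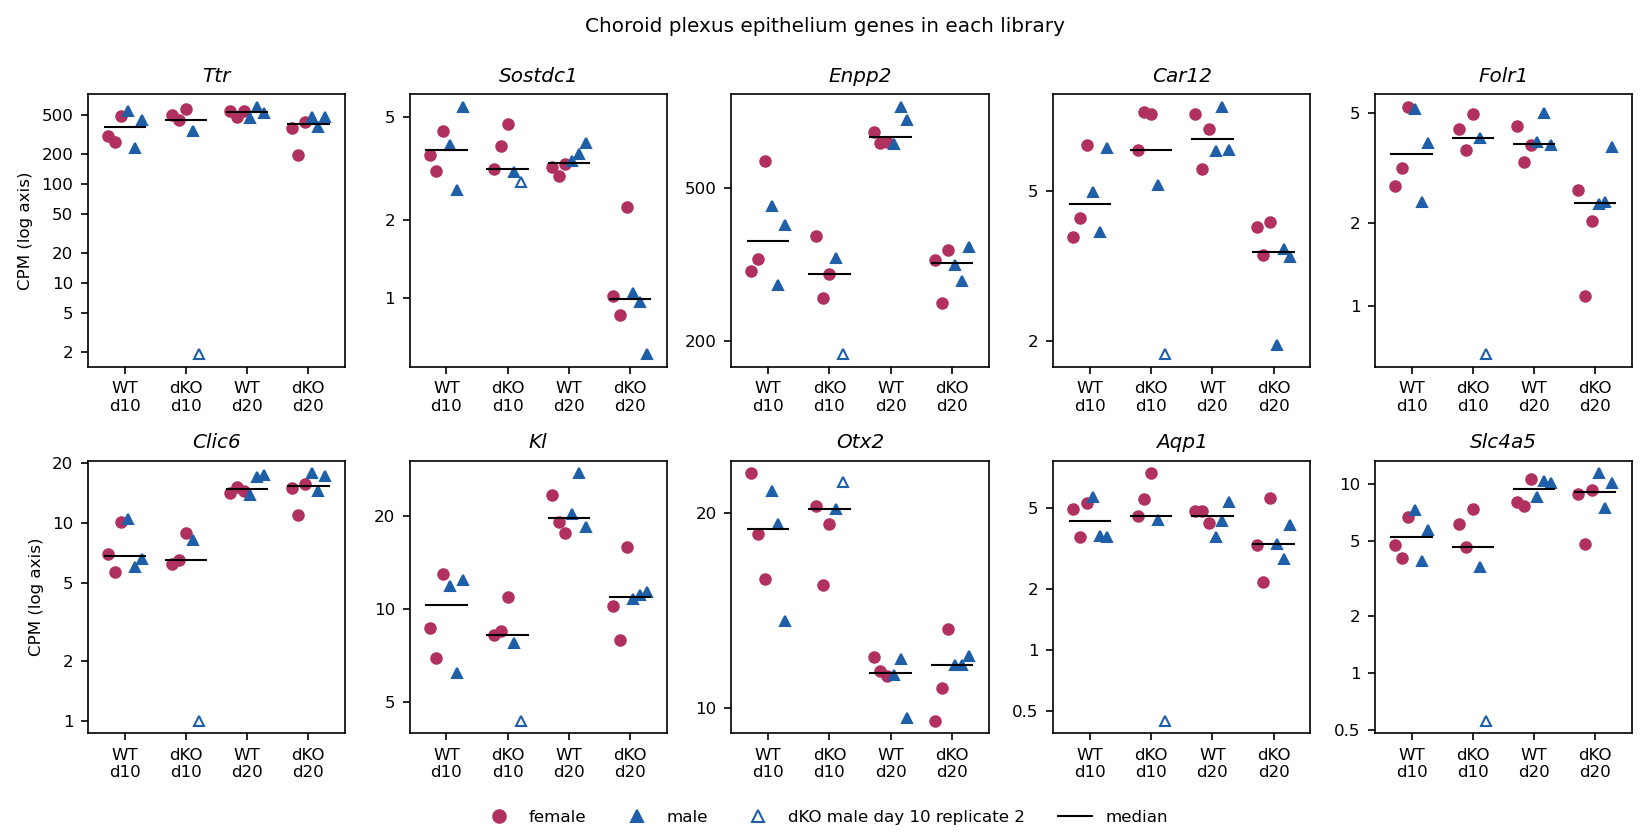
Level of each of the 10 genes in the 23 libraries, in CPM on a log axis, by genotype and day (d10, d20); circles are females, triangles males, the bar is the median of the group, and the open triangle is dKO male day 10 replicate 2. At day 20 the dKO libraries lie below every WT library for Sostdc1, Enpp2, Car12 and Kl, and the open triangle lies far below the rest for Ttr.

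At day 20, Sostdc1, Enpp2, Car12, Kl and Folr1 fell in dKO, by 1.74-fold to 3.20-fold. Ttr, the factor gene Otx2 and the genes of ion and water movement Slc4a5, Aqp1 and Clic6 were not called. In all 5 of 10 fell and none rose. Over all 21657 genes tested in edgeR's quasi-likelihood test, 38.8% were called at this day (adjusted p under 0.05), 19.5% as lower. The median log2 change was -0.63 for the 10 genes and -0.0004 for all genes. For 4 of the 10, every dKO library lay below every WT library, which was so for 10.3% of all genes.

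Sostdc1 (ENSMUSG00000036169, GRCm38 chromosome 12, 36314139 to 36318452, plus strand) encodes a secreted antagonist of BMP and Wnt signalling. At day 20 it was at 3.20, 2.96 and 3.28 CPM in WT females and 3.37, 3.59 and 3.97 CPM in WT males, against 1.01, 0.854 and 2.24 CPM in dKO females and 1.04, 0.960 and 0.604 CPM in dKO males. The 12 libraries did not overlap, and the dKO female replicate 3 lay nearest to WT. The fitted level was 3.20-fold lower in dKO (log2 -1.68 ± 0.21 SE, adjusted p = 1.86e-06), on 11 to 34 counts per dKO library.

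Enpp2 (ENSMUSG00000022425, chromosome 15, 54838901 to 54952892, minus strand) encodes autotaxin, the secreted enzyme that makes lysophosphatidic acid. It was at 702, 655 and 660 CPM in WT females and 650.1, 815 and 755 CPM in WT males, against 325, 251 and 345 CPM in dKO females and 315, 286 and 351 CPM in dKO males. Every dKO library was below every WT library, by a fitted 2.26-fold (log2 -1.18 ± 0.18, adjusted p = 7.63e-05). Oligodendrocytes also transcribe Enpp2, and 5 of their 12 markers fell, where 19.5% of all genes did. The summed markers were at 12694 to 16299 CPM in dKO against 16432 to 21389 CPM in WT. Log2 changes ran from -1.59 for Ermn and -1.26 for Ugt8a to -0.15 for Cldn11 and -0.09 for Mal, neither of which was called. The part of oligodendrocytes in the Enpp2 change was not tested. Lpar1, a receptor for the lipid that autotaxin makes, was also lower (log2 -0.77, adjusted p = 5.42e-06).

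Car12 (ENSMUSG00000032373, chromosome 9, 66713686 to 66766845, plus strand) encodes a membrane carbonic anhydrase, which interconverts carbon dioxide and bicarbonate. WT females held 8.02, 5.72 and 7.29 CPM and WT males 6.40, 8.37 and 6.41 CPM, whereas dKO females held 4.0, 3.38 and 4.15 CPM and dKO males 1.95, 3.50 and 3.35 CPM. The groups did not overlap, and the lowest value was that of dKO male replicate 1. The fitted difference was 2.09-fold (log2 -1.06 ± 0.20, adjusted p = 0.000217).

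Kl (ENSMUSG00000058488, chromosome 5, 150952607 to 150993817, plus strand) encodes klotho, a co-receptor for FGF23 that is also shed into cerebrospinal fluid. It was at 23.4, 19.1 and 17.6 CPM in WT females and 20.2, 27.5 and 18.4 CPM in WT males, against 10.2, 7.92 and 15.8 CPM in dKO females and 10.7, 11.1 and 11.4 CPM in dKO males. Here too all dKO libraries were below all WT libraries, with dKO female replicate 3 nearest to WT. The fitted level was 1.90-fold lower (log2 -0.92 ± 0.19, adjusted p = 0.000974).

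Folr1 (ENSMUSG00000001827, chromosome 7, 101858331 to 101870788, minus strand) encodes the folate receptor that carries folate across this epithelium. Its values were 4.49, 3.34 and 3.83 CPM in WT females and 3.94, 5.0 and 3.83 CPM in WT males, and 2.64, 1.09 and 2.04 CPM in dKO females and 2.35, 2.38 and 3.79 CPM in dKO males. The highest dKO library, male replicate 3, overlapped WT. The call (log2 -0.80 ± 0.29, adjusted p = 0.0345) was lost without any 1 of 8 day 20 libraries (adjusted p up to 0.102 there), and with no filter on low counts (0.0811). The libraries were replicates 2 and 3 of dKO females, 1 and 2 of dKO males, 1 and 3 of WT females, and 1 and 2 of WT males. Slc46a1, the proton-coupled folate transporter that works beside this receptor, was lower too (log2 -0.63, adjusted p = 4.9e-05). In females alone the change of Slc46a1 was log2 -0.19 (adjusted p = 0.421 in edgeR). Slc19a1, another folate transporter gene, was at log2 0.05 in females (adjusted p = 0.800). The edgeR genotype by sex interaction at day 20, males against females, was log2 -0.87 for Slc46a1 (adjusted p = 0.0709). For Slc19a1 it was 0.51 (adjusted p = 0.0826).

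Ttr (ENSMUSG00000061808, chromosome 18, 20665280 to 20674321, plus strand), the carrier of thyroxine and of retinol-binding protein, was not called at day 20. It was at 546, 480.5 and 545 CPM in WT females and 464, 603 and 525.7 CPM in WT males, against 372, 196 and 425 CPM in dKO females and 479.5, 379 and 475 CPM in dKO males. The groups overlapped, since 2 dKO males exceeded the lowest WT library. The log2 change was -0.46, with a 95% interval from -1.54 to 0.62 and an adjusted p of 0.552. Without dKO male day 10 replicate 2 the change was again -0.46, with an adjusted p of 0.117, and over all 33 alternatives the adjusted p ran from 0.0728 to 0.731.

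Among the members, the genes of bicarbonate, water and chloride movement other than Car12 were not called. Slc4a5 (ENSMUSG00000068323, chromosome 6, 83219828 to 83304945, plus strand), a sodium bicarbonate cotransporter of the ventricle-facing membrane, had WT values of 7.59, 9.31 and 10.6 CPM (lowest, median and highest of 6) and dKO values of 4.81, 9.04 and 11.4 CPM. Its log2 change was -0.11, with an interval from -0.54 to 0.32 (adjusted p = 0.740). Aqp1 (ENSMUSG00000004655, chromosome 6, 55336432 to 55348555, plus strand), the water channel of the same membrane, ran over 3.59, 4.58 and 5.37 CPM in WT and 2.17, 3.33 and 5.59 CPM in dKO. The log2 change of Aqp1 was -0.40, with an interval from -0.94 to 0.14 (adjusted p = 0.278). Clic6 (ENSMUSG00000022949, chromosome 16, 92485736 to 92541243, plus strand), of the chloride intracellular channel family, lay at 13.9, 14.8 and 17.5 CPM in WT and 11, 15.4 and 17.9 CPM in dKO. Its log2 change was -0.02, with an interval from -0.47 to 0.43 (adjusted p = 0.961), which does not hold a 1.5-fold fall.

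Otx2 (ENSMUSG00000021848, chromosome 14, 48657677 to 48673819, minus strand), the homeodomain factor required to form and keep choroid plexus, had the narrowest interval. Its values were 9.63, 11.3 and 12 CPM in WT and 9.56, 11.6 and 13.2 CPM in dKO. The groups overlapped fully, and the log2 change was 0.02, with an interval from -0.19 to 0.24 (adjusted p = 0.891).

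**Figure D2:**
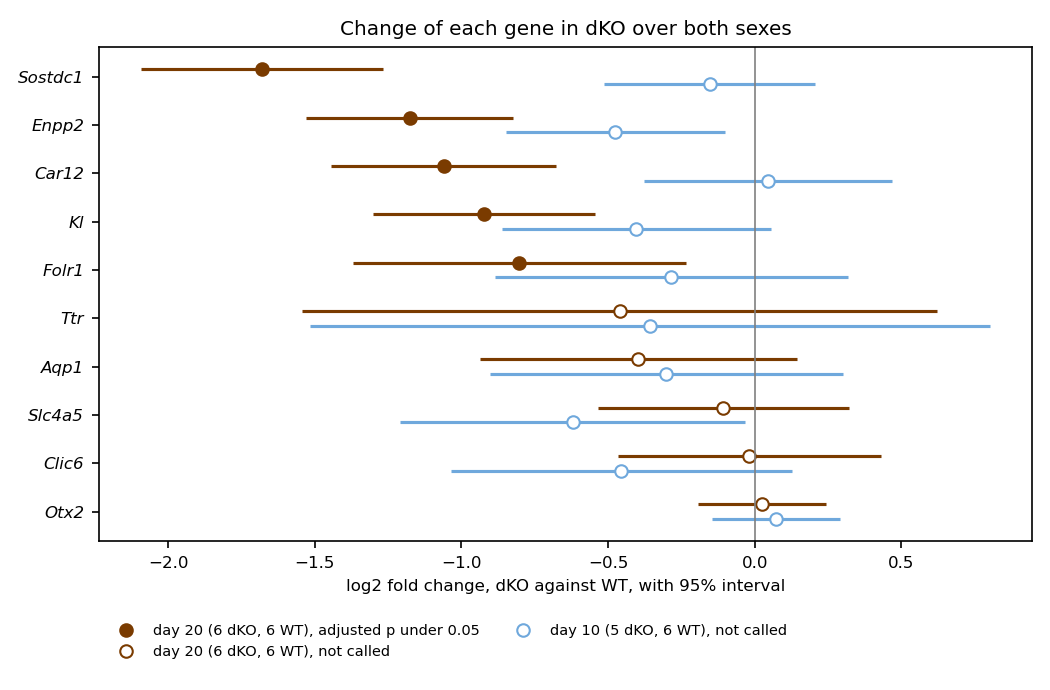
Log2 fold change of each gene in dKO against WT over both sexes, with its 95% interval, at day 20 (brown, 6 against 6 libraries) and day 10 (blue, 5 against 6 libraries); filled points were called at an adjusted p under 0.05. The 5 called genes are at day 20, from -1.68 for Sostdc1 to -0.80 for Folr1, and the 10 points at day 10 are open.

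The 10 genes did not change in proportion. For each of their 45 pairs, the log2 ratio within a library was compared between the 6 dKO and 6 WT libraries of day 20 by a two-sided exact permutation test, which was chosen after the values were seen and whose smallest possible p is 0.00216. Relative to Clic6, dKO held less Sostdc1 (log2 difference of the ratio -1.70), Enpp2 (-1.16) and Car12 (-1.06), each with an adjusted p of 0.00609 over the 45. Ttr also fell relative to Clic6, by -0.47, relative to Otx2, by -0.52, and relative to Slc4a5, by -0.37, with the same adjusted p for each, although Ttr by itself was not called. No difference was called between Ttr and Aqp1 (-0.09, adjusted p = 0.638), Folr1 and Kl (0.07, adjusted p = 0.764), Enpp2 and Car12 (-0.10, adjusted p = 0.648), or Clic6 and Slc4a5 (0.11, adjusted p = 0.428).

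With the sexes apart at day 20, Sostdc1, Enpp2 and Car12 were lower in dKO females (3 of 10 called lower, against 5.37% of all genes). The log2 changes in females were -1.33, -1.13 and -0.88 in that order, and Kl, at -0.87, had an adjusted p of 0.0512. In males these genes and Kl were lower (4 of 10, against 17.5% of all genes), with log2 changes of -2.03 for Sostdc1, -1.22 for Enpp2, -1.24 for Car12 and -0.98 for Kl. A difference between the sexes was not detected. In edgeR's genotype by sex interaction 0% of genes were called at day 20, and 0 of the 10 had an unadjusted p under 0.05, against 3284 of 21657 genes; limma-voom called 0 genes and DESeq2 340, with 0 of the 10 among them. The interaction was largest for Sostdc1, at log2 -0.70 with an interval from -1.57 to 0.17.

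At day 10 none of the 10 was called over both sexes, where 5.79% of all genes were called in edgeR, and 1 (Enpp2) had an unadjusted p under 0.05; DESeq2 and limma-voom called 0 of the 10. Sostdc1 was at 3.56, 3.07 and 4.42 CPM in WT females and 3.90, 2.60 and 5.47 CPM in WT males, against 3.15, 3.84 and 4.69 CPM in dKO females and 3.06 and 2.79 CPM in dKO males. The genotypes overlapped, and the log2 change was -0.15 (interval -0.51 to 0.21, adjusted p = 0.654). Without dKO male replicate 2 it was -0.14 (adjusted p = 0.836). For Enpp2 the change was -0.48 (interval -0.85 to -0.10, adjusted p = 0.132), and without that library -0.31 (adjusted p = 0.563). Oligodendrocyte markers moved with Enpp2 at this day too. All 12 had negative log2 changes (-0.87 to -0.52) and 4 of them were called lower (Mbp, Mag, Mobp and Cnp), with sums of 4248 to 6667 CPM in dKO against 6260 to 12787 CPM in WT. Without dKO male replicate 2, 0 of the 12 were called and their changes were -0.70 to -0.43, with 10 at an unadjusted p under 0.05. The part of oligodendrocytes in the Enpp2 value was not tested. For Car12 the change was 0.04 (interval -0.38 to 0.47, adjusted p = 0.928), and 0.31 without that library (interval -0.08 to 0.70, adjusted p = 0.543). Car12 was at 6.41, 8.11 and 8.03 CPM in dKO females, against 3.78, 4.24 and 6.63 CPM in WT females, and in that sex its change was 0.57 (adjusted p = 0.241; 0.591% of genes were called in females). In males 0 of the 10 were called and 0.0139% of genes. The genotype by sex interaction at day 10 called 0% of genes in edgeR and 0 in DESeq2 and limma-voom, with 2599 at an unadjusted p under 0.05, Car12 and Slc4a5 among them.

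The day 10 values turn on the library that stands apart. Relative to the median of the 10 other day 10 libraries, dKO male replicate 2 held 0.429% as much Ttr, 9.34% as much Aqp1, 10.7% as much Slc4a5, 14.8% as much Clic6 and 16.8% as much Folr1. Car12 was at 31.8%, Kl at 50.8% and Enpp2 at 56.4%, and these 8 genes were below all 10 other libraries. Sostdc1 (75.3%) and Otx2 (116%) were within the range of the others. The other dKO male library of day 10 held 343 CPM of Ttr and 8.23 CPM of Clic6, within the WT range. Its Slc4a5, at 3.61 CPM, was below the lowest WT library of that day (3.88 CPM). Over the 22 other libraries of both days Ttr ranged 3.08-fold, from 196 to 603 CPM. The lower granule, Purkinje and Hox sums of that library, given above, move with this loss, and their part in it was not tested. Without it, Ttr at day 10 changed by log2 0.12 (adjusted p = 0.896) and none of the 10 was called. Without replicate 1 instead, which leaves the low library alone in its group and assumes that it varies as the other groups do, 6 were called lower (Ttr, Enpp2, Folr1, Clic6, Aqp1 and Slc4a5), with Ttr at log2 -3.61.

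**Figure D3:**
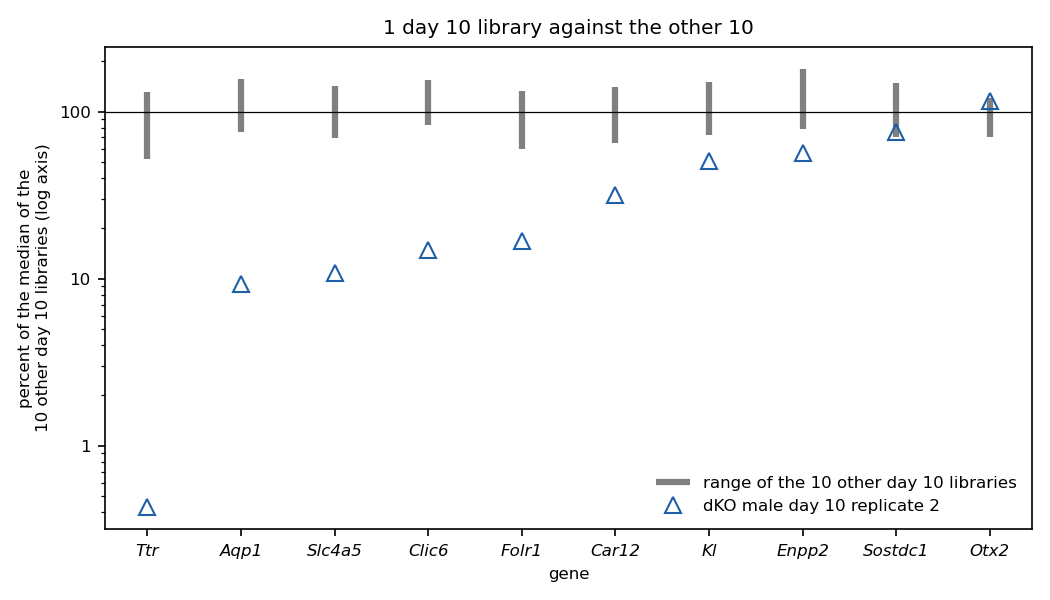
Level of each gene in dKO male day 10 replicate 2 (open triangle), as a percentage of the median of the 10 other day 10 libraries, on a log axis; grey bars are the range of those 10. Ttr is at 0.429%, and the triangles of Sostdc1 and Otx2 lie within the grey bars.

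The genotype difference changed between the days for 2 of the 10 genes, where 28.7% of all genes were called in the genotype by day interaction. Sostdc1 was further below WT at day 20 than at day 10, by log2 -1.53 ± 0.29 (adjusted p = 0.000477), and Car12 by -1.11 ± 0.29 (adjusted p = 0.00814). Without the low library these were -1.54 (adjusted p = 0.00115) and -1.36 (adjusted p = 0.000739). Car12 lost this call without dKO male day 10 replicate 1 (log2 -0.64, adjusted p = 0.128). Enpp2, at -0.70, had an adjusted p of 0.0529, and it was called in 7 of 32 alternatives, among them the one without the low library (-0.86, adjusted p = 0.0282). In WT the epithelium genes also changed with age. From day 10 to day 20, 5 of the 10 rose and 1 fell, where 26.1% of all genes rose and 25.3% fell. Those that rose were Kl (log2 1.08, adjusted p = 0.000129), Clic6 (0.94, adjusted p = 0.00311), Enpp2 (0.85, adjusted p = 0.000777), Slc4a5 (0.72, adjusted p = 0.0116) and Car12 (0.49, adjusted p = 0.0281). Car12 lost the call in 9 of 33 alternatives. Otx2 fell, from 18.6 ± 3.53 to 11.2 ± 0.85 CPM (SD, n = 6 each; log2 -0.75, adjusted p = 3.16e-06).

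The levels of the 5 genes that fell in dKO at day 20 had different courses, given here as means with SD (n = 6, or 5 in dKO at day 10). Enpp2 went from 392 ± 116 CPM at day 10 to 706 ± 66.5 CPM at day 20 in WT, and from 289 ± 72.1 to 312 ± 37.9 CPM in dKO. Kl went from 9.83 ± 2.93 to 21 ± 3.74 CPM in WT and from 7.93 ± 2.35 to 11.2 ± 2.58 CPM in dKO. In Car12 the means moved in opposite directions, from 5.0 ± 1.28 to 7.03 ± 1.03 CPM in WT and from 5.91 ± 2.58 to 3.39 ± 0.78 CPM in dKO. Sostdc1 went from 3.84 ± 1.02 to 3.40 ± 0.35 CPM in WT and from 3.51 ± 0.77 to 1.12 ± 0.57 CPM in dKO, and Folr1 from 3.78 ± 1.24 to 4.07 ± 0.58 CPM in WT and from 3.55 ± 1.68 to 2.38 ± 0.88 CPM in dKO. Clic6, which was not called, went from 7.64 ± 2.12 to 15.4 ± 1.53 CPM in WT and from 6.17 ± 3.10 to 15.2 ± 2.44 CPM in dKO. Without the low library (n = 4) the dKO means at day 10 were 315 ± 49.0 CPM for Enpp2, 8.82 ± 1.42 for Kl, 6.93 ± 1.41 for Car12, 3.69 ± 0.75 for Sostdc1, 4.27 ± 0.55 for Folr1 and 7.46 ± 1.32 CPM for Clic6. A change with age within dKO was not tested.

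Between libraries of the same group, most of the genes went up and down together. After each group's mean log2 CPM was removed, Pearson's r over the 23 libraries was positive for 37 of the 45 pairs, with a median of 0.66 and a range from -0.36 to 0.96. By permutation within groups, 23 pairs had an adjusted p under 0.05 over the 45, and all 23 were positive. Spearman's rho had a median of 0.60, with 22 such pairs. The share of pairs called among all genes was not computed, so these counts have no background to stand against. Leaving out, for each pair, the 2 libraries farthest from the median of its first gene, in the order listed above, gave a median r of 0.58. Without dKO male day 10 (21 libraries) the median was 0.64, with 19 pairs called by r and 14 by rho. The number of pairs called rests on single libraries: it was 12 without dKO female day 20 replicate 2 and 14 without WT female day 10 replicate 3, with median r of 0.65 and 0.67.

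The pairs with the highest r over 23 libraries were Ttr and Clic6 (r = 0.96, rho = 0.89), Clic6 and Aqp1 (0.95 and 0.89), Clic6 and Slc4a5 (0.94 and 0.91) and Ttr and Slc4a5 (0.92 and 0.94), with adjusted p from 0.00135 to 0.00247 for r by permutation. Without dKO male day 10 these 4 had r = 0.84, 0.81, 0.84 and 0.93. The highest r was then that of Ttr and Slc4a5, followed by Ttr with Folr1 (0.88) and Ttr with Kl (0.87). Set against the mean of the other 9 over the 23 libraries, Slc4a5 and Clic6 had r = 0.95, Folr1 and Aqp1 0.92, Ttr 0.90, Enpp2 0.77, Car12 and Kl 0.75, and Sostdc1 0.35. Without dKO male day 10 the order changed. Ttr then had 0.97, Kl 0.89, Slc4a5 0.85, Clic6 0.83, Folr1 0.81, Enpp2 0.78, Aqp1 0.72, Sostdc1 0.59 and Car12 0.49. Otx2 stood outside: over the 23 libraries its r with the mean of the other 9 was -0.11, its 9 pairs had a median r of -0.10, and 0 of them were called. Without dKO male day 10 its r with that mean was -0.02. The 36 pairs without Otx2 were all positive, with a median of 0.71, or 0.69 without dKO male day 10. Whether the amount of choroid plexus taken with each piece of tissue sets this shared variation was not tested.

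**Figure D4:**
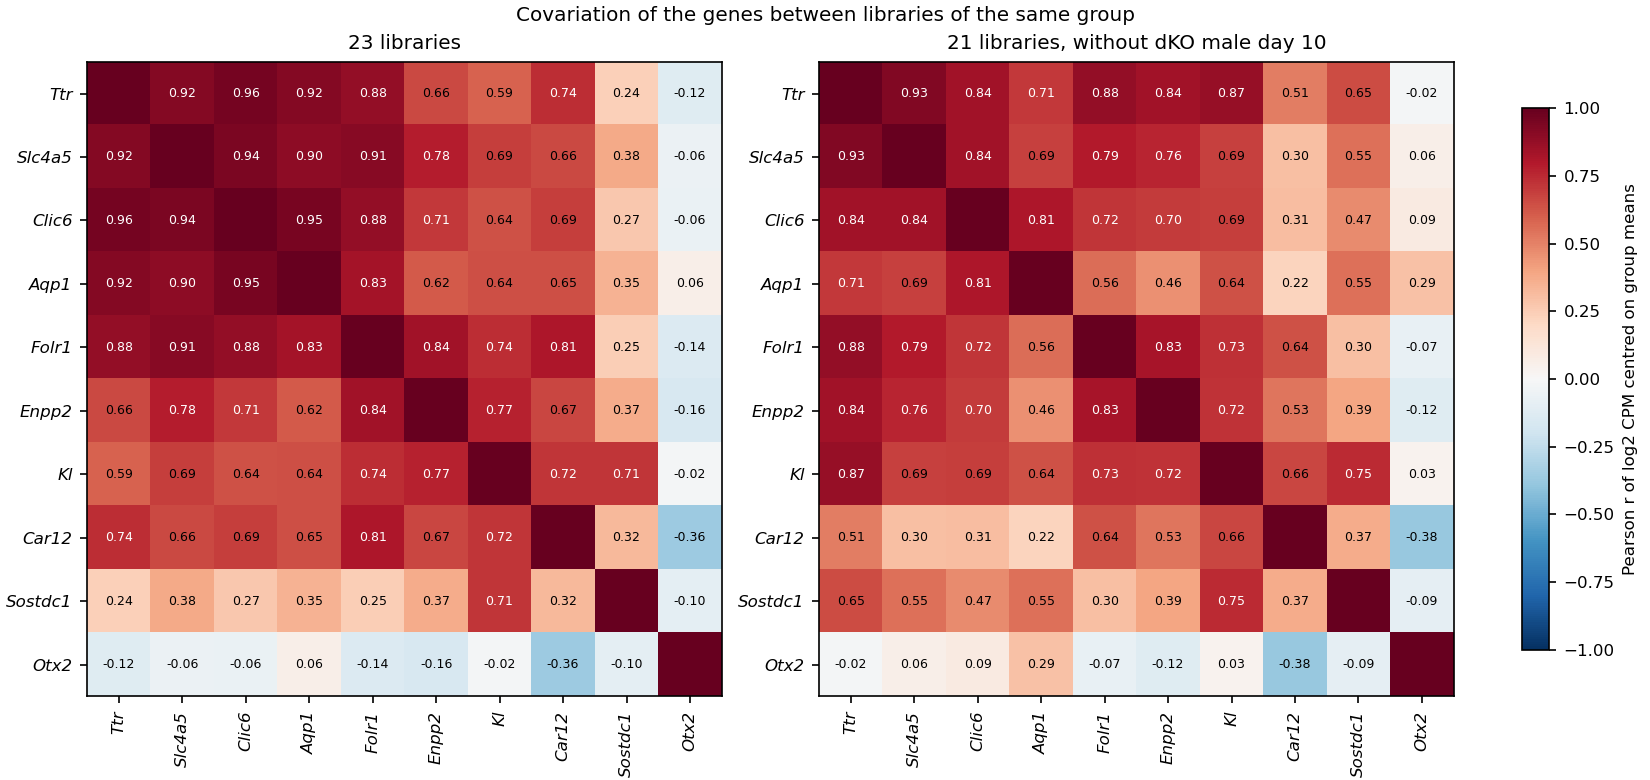
Pearson's r between the 10 genes across libraries, from log2 CPM after the mean of each group was removed, over 23 libraries (left) and over 21 libraries without dKO male day 10 (right); red is positive and blue negative. All pairs among the 9 genes other than Otx2 are positive in both panels, and the row of Otx2 is pale.

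The genes outside the list whose centred levels were most like the mean of the 10 included further epithelial genes. Among the 16975 genes that averaged 1 CPM or more, the most like over 23 libraries were Cldn2 (r = 0.96), which encodes a tight junction protein of this epithelium, Rdx (0.92), Mfrp (0.90), Abca4 (0.88) and Kcne2 (0.88), a potassium channel subunit. Rpl7l1, Cdc42se1 and Spsb1 (each 0.87) and Tmem72 and Rnf141 (each 0.86) followed. Without dKO male day 10, Cldn2 (0.90) and Abca4 (0.88) came first, and Rdx, Mfrp and Kcne2 were no longer among the 10. Across a separate list of other choroid plexus genes the median r was 0.43 (25 genes), or 0.63 without that group, against 0.02 and -0.01 over all genes. Cerebellar granule markers had a median r of 0.69 with the low library's group and 0.04 without it, and 12 oligodendrocyte markers had 0.52 and 0.43. Over 23 libraries r was over 0.5 for 48% of the other choroid plexus genes and 8.85% of all genes. It was also over 0.5 for 75% of granule and 66.7% of oligodendrocyte markers. Without dKO male day 10 these shares were 60%, 2.14%, 0% and 8.33%. Ependymal and cilia markers, of the cells that line the rest of the ventricle, had -0.17 and 0.26.

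In that separate list of 28 other choroid plexus genes, 27 were tested at day 20, of which 15 were lower and 3 higher in dKO (18 called, against 38.8% of all genes), with a median log2 change of -0.51; at day 10 none of the 27 was called. Kcnj13, a potassium channel gene, fell (log2 -1.22, adjusted p = 0.000185), from 4.51 ± 1.27 CPM in WT to 2.0 ± 0.54 CPM in dKO (SD, n = 6 each), and so did Kcne2 (-1.20, adjusted p = 0.000657), from 3.69 ± 0.74 to 1.60 ± 0.23 CPM. Igfbp2, which encodes a binding protein of insulin-like growth factors, was lower (-0.82), and so was the prolactin receptor gene Prlr (-0.59). The collagen gene Col8a1 (-0.69), the homeobox gene Msx1 (-0.84) and the sulfate transporter gene Slc13a4 (-0.47) were also lower. Ace, the angiotensin-converting enzyme gene, rose (log2 0.51, adjusted p = 2.23e-05), from 31.8 ± 2.51 to 45.2 ± 5.0 CPM.

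The counts that follow for day 20 stand against 38.8% of all genes called, 19.5% as lower. Broadly expressed transporters of fluid secretion gave 4 lower and 2 higher of 13, a share near that of all genes, with Aqp4 (log2 -0.72), Car2 (-1.18) and Slc12a4 (-0.45) lower and Car14 (0.64) higher. Binding partners and receptors of the members' products gave 8 lower and 2 higher of 18, with the FGF receptor gene Fgfr3 at 0.55. Other cell types moved at the same day. Meningeal fibroblast markers were lower in 7 of 10 (Lum at -2.20, Col3a1 at -1.80), with sums of 108 to 154 CPM in dKO against 178 to 261 CPM in WT. Microglial markers were lower in 9 of 10, endothelial markers in 7 of 10 with 2 higher, and erythrocyte markers in 6 of 6. Plvap, which marks the fenestrated vessels found in choroid plexus, was higher (log2 0.30, adjusted p = 0.0182), while Cldn5 of barrier vessels was lower (-0.62). Ependymal and cilia markers gave 4 lower (Ccdc153 at -0.84, Tmem212 at -0.90 and Cfap126 at -0.56 among them) and 1 higher (Tekt4 at 1.23) of 12, again near the share of all genes. Purkinje, granule and Hox markers gave 0 called of 8, 8 and 12, and their sums overlapped between the genotypes. Forebrain position markers did not overlap, with sums of 50.9 to 74.2 CPM in dKO against 79.5 to 94.4 CPM in WT. The part of these cell types, and of the position of the tissue piece, in the changes of the 10 genes was not tested.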

How the data were processed

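Raw gene counts, 1 table for each of 24 libraries, were deposited by the authors. STAR 2.5.2b, HTSeq and GRCm38.p5 are named in the submitters' processing notes; which tool counted is not given in the sources used here. The kit was TruSeq Stranded mRNA, per the labels' protocols. Counts of the reverse strand were taken, next to which those of the forward strand came to 5.22 to 7.46%. The 4 entries that name no gene were left out (no-feature reads were 41.7 to 47.5% of reads). Symbols and positions came from GENCODE M21 (50462 of 50686 identifiers). Libraries with at least 1 M gene counts were kept (23 of 24).

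In R 4.3.3, edgeR 4.0.16 kept genes by filterByExpr, scaled by TMM, fitted the means of 8 groups with glmQLFit (robust) and tested contrasts by glmQLFTest, two-sided, with Benjamini-Hochberg adjustment over 21657 genes. Levels are CPM with TMM factors, and log2 CPM used a prior count of 2. Counting limits cover counting error only. The test was tried on simulated data. Correlations used 100000 permutations of 1 gene within groups.

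The members and the 15 gene lists were chosen with earlier results of these data known. Named genes were the 10 members, 8 other choroid plexus genes and up to 4 genes of every other list by p at day 20, Plvap, the 10 genes most like the members, Pank1, Pank2 and the sex genes; some genes of the rule are given only within counts, and 1 is not reported here. Slc19a1 and the genes most like the members without dKO male day 10 were named after their values were seen. Alternatives were RLE factors, no filter, a filter at a mean of 1 CPM, unstranded counts, all 24 libraries, DESeq2 1.42.0, limma-voom (limma 3.58.1), only the groups compared, each library left out in turn, a prior count of 0.5 for the correlations, and, after the data were seen, edgeR's earlier dispersion estimate and leaving out dKO male day 10.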

Additional observations from a re-analysis of the deposited data

Results flagged for a closer look

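In sets of 5 or 6 libraries of 1 genotype and day, 8 of 40 held a library far from the others by Dixon's test. Chance gives about 1 in 20 for independent sets. These sets share libraries and most of the genes vary together, so the count cannot be weighed against that share. The library labelled dKO male day 10 replicate 2 was the low one for 5 genes: Ttr at 1.90 CPM, Folr1 at 0.670, Clic6 at 1.0, Aqp1 at 0.446 and Slc4a5 at 0.558 CPM. At day 20 Ttr was at 196 CPM in dKO female replicate 2, Car12 at 1.95 CPM in dKO male replicate 1 and Otx2 at 9.63 CPM in WT male replicate 3, each below the rest of its set.

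The genotype difference of 2 genes differed between the days by the interaction test, with log2 -1.53 for Sostdc1 and -1.11 for Car12. In the library labelled dKO male day 10 replicate 3, which no comparison used, Ttr had 22 counts and Enpp2 16 counts of 45964, above the limit of 3 counts that a count of 0 allows; the other 8 genes had 0 or 1 count.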

How the results depend on the processing

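Each comparison was recomputed under up to 33 alternatives. Called members at day 20 numbered 4 to 5 over both sexes (5 as reported) and 4 to 5 in males (4), with Sostdc1, Enpp2, Car12 and Kl called in all 33 over both sexes. Leaving out 1 library at a time gave 4 to 5 over both sexes, 2 to 4 in females and 4 to 4 in males. In females 5 were called with only the groups compared, against 3. At day 10 the reported count of 0 over both sexes was 0 to 6 when 1 library was left out, as were those in males (0 to 6) and in the genotype by sex interaction of that day (0 to 6); the genotype by day interaction had 2 to 4 against 2. The highest of each came without dKO male day 10 replicate 1, where Ttr turned to log2 3.15 (adjusted p = 0.000249) in the genotype by day interaction, against -0.10 as reported and -0.58 without replicate 2; with replicate 2 alone in that group, the fit rests on the low library. Pairs of members called numbered 12 to 26 when 1 library was left out, against 23. In WT with age, 5 to 6 were called. Values that were not called changed sign 37 times. Genes called at day 10 over all 21657 numbered 1254, but 608 with no filter, 2084 in DESeq2, 6 with only the groups compared, and 16 to 4648 with 1 library left out (16 without dKO male replicate 2, 4648 without replicate 1). In females at day 10 they numbered 128, but 11 with only the groups compared and 734 in DESeq2, and in males 3, but 566 in DESeq2 and 4484 without replicate 1. In females at day 20 they numbered 2317, but 4010 with only the groups compared and 1110 without WT female replicate 1, and in the genotype by sex interaction at day 20 0, but 1091 with only the groups compared. The cause of these shifts was not tested. No paired analysis was possible because the labels give no replicate numbers. Low counts limit the precision of Sostdc1 (11 to 34 counts in dKO at day 20).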
